A study of Homo sapiens with 6 samples.

Results

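The dual-specificity MAPK phosphatases are enzymes that switch off mitogen-activated protein kinases. Of the 58735 genes annotated in the deposited tables, 10 were taken as members by their symbols and their protein-coding biotype: DUSP1, DUSP4, DUSP5, DUSP6, DUSP7, DUSP8, DUSP9, DUSP10, DUSP14 and DUSP16. Each symbol matched 1 row, and all 10 were detected in all 6 libraries. The libraries are labelled as MDA-MB-231, a human triple-negative breast cancer cell line. In 3 of them (CB in their titles, CB1 here) the cells overexpressed cannabinoid receptor type 1, which couples to G proteins and is the product of CNR1, and in the other 3 (Vector) the cells carried the empty vector. According to the methods of the study, the stable overexpressing line was made by lentiviral transduction with a pCDH plasmid. Puromycin selection and pooled clones are described there for lentivirus carrying shRNA, and whether they apply to the overexpressing line is not stated. Both groups carry the label of the same parental line, and marker genes that differ between them are given below. The treatment label of the CB1 libraries reads CB1 and that of the Vector libraries reads DMSO, and whether the CB1 cells also received DMSO is not stated. Overexpression, the making of each line and the vehicle therefore cannot be told apart. No label says that the libraries of a group were separate cultures. The p-values therefore reflect only how far these samples differ from each other, and that spread may be technical.

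MAP kinases are activated when a kinase kinase adds phosphate to a threonine and a tyrosine in their activation loop. The dual-specificity phosphatases remove both phosphates. The classical members bind their kinase through an N-terminal docking domain and fall into classes. DUSP1, DUSP4 and DUSP5 are nuclear and their genes are induced by growth factors or stress. DUSP6, DUSP7 and DUSP9 are cytoplasmic and act mainly on the kinase ERK. DUSP8, DUSP10 and DUSP16 prefer the stress kinases JNK and p38. DUSP14 is a small atypical member without the docking domain. Because ERK signalling induces several of these genes, their transcripts are widely read as a record of pathway activity as well as a brake on it.

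The promoters are shown first. DUSP1 is a textbook target of the cAMP-responsive factor CREB, and the cAMP response element was among the motifs searched. Promoter windows of 300 bases, 250 before and 50 after a start site, came from RefSeq on GRCh38.p14 and matched 8 of the 10 members with 10 windows. DUSP4 and DUSP5 had no window, and DUSP9 and DUSP10 each had windows at different start sites. The motifs were searched on both strands. The full cAMP response element, TGACGTCA, was found in the windows of 2 members, DUSP1 and DUSP8, against 1.84% of all 34943 windows. The stretches from 150 bases to 1 base before the start site are printed 5′ to 3′ on the gene's strand for these genes and for DUSP9, the member with the largest difference between the groups. For DUSP9 only the stretch at start site 153642441 is printed, and not that at start site 153647203. Capitals mark the full cAMP response element.
DUSP1, chr5:172771196-172771345, minus strand: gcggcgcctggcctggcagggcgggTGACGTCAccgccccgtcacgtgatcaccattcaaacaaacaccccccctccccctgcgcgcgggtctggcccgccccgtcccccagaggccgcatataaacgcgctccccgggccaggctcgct
DUSP8, chr11:1572272-1572421, minus strand: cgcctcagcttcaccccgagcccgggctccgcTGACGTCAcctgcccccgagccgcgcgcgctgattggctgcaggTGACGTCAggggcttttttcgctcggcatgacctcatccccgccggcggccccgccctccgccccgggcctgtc
DUSP9, chrX:153642291-153642440, plus strand: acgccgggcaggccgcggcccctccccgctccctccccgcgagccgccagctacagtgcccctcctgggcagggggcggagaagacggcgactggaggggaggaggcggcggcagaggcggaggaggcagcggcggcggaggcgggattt

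With the start site at position 0, the element began at -125 in DUSP1 and at -118 and -74 in DUSP8. The shorter core TGACG, which the full element contains on either strand, was in the windows of 3 members (DUSP1, DUSP8 and DUSP10), against 24.5% of all windows. The GC box GGGCGG was in the windows of 7 members, against 44.9% of all windows. No member window held the AP-1 site TGANTCA, the ETS site CCGGAAG or the CArG box bound by SRF, which were in 7.72%, 10.2% and 1.30% of all windows. These matches describe letters in a window and are not evidence of binding. The RefSeq start of DUSP8 (position 1572271) lies upstream of the gene's start in the deposited tables (position 1571920). Measured from that deposited start, the RefSeq start was at 770 bases in DUSP6 and -480 bases in DUSP16, where negative values lie upstream. The farther start sites of DUSP9 and DUSP10 were at 4711 and 5276 bases. An absent motif therefore applies to these windows only. In the results below DUSP1 was higher in CB1 cells, and DUSP8, which had small counts, did not pass the test. The part of the element in either result was not tested.

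The label was checked with CNR1, which had 6465, 7703 and 7353 counts in the CB1 libraries, against 7, 6 and 4 in the Vector libraries. Total counts per library ran from 16957881 to 18833661. CB1 replicate 1 stood apart from the other CB1 libraries, with a second principal component score of 20.2 against -10.3 and -13.8. It was the highest or the lowest of the CB1 libraries for 9 of the 10 phosphatases, and for 79.3% of all genes tested. The line's markers (VIM, KRT8, KRT18, CD44, AXL, CAV1, MSN and S100A4) were present in all libraries and summed to 6084 to 6442 counts per 1000000 of scaled library size (CPM) in CB1 and 5028 to 5115 CPM in Vector libraries. S100A4 went against that sum, 3.47-fold lower in CB1 cells (log2 change -1.80, edgeR adjusted p = 1.80e-07). ESR1 and PGR, receptors that the line lacks, had 11 and 30 counts over the CB1 libraries and 11 and 32 over the Vector libraries. ERBB2, which encodes HER2, was at 82.7 to 89.6 CPM in CB1 and 82.4 to 84.7 CPM in Vector libraries. The line is known for a deletion of CDKN2A at 9p21. CDKN2A, CDKN2B and MTAP together stood at 22.7 to 31.9 CPM in CB1 libraries, against 0.727 to 2.22 CPM in Vector libraries. A list of 11 genes typical of the embryonic kidney line HEK293, in which lentivirus is produced, summed to 55.3 to 68.2 CPM in CB1 and 10.3 to 15.6 CPM in Vector libraries. All 5 of its genes that entered the test were higher in CB1, of which 1 also reached the abundance minimum in Vector cells alone, and MYT1 and STMN2 were at 0 in all Vector libraries. These marker differences stand beside every comparison of the groups, and their part in the results for DUSP1, DUSP4, DUSP5, DUSP6, DUSP7 and DUSP16 was not tested.

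All 10 phosphatases entered the edgeR quasi-likelihood test, which covered the 15289 genes whose mean over the 6 libraries reached 0.5 FPKM (fragments per kilobase of gene length, relative to the size of the library). At an adjusted p under 0.05, 3 of them were higher in CB1 cells (DUSP1, DUSP7 and DUSP9), where 24.4% of all genes tested were higher. DUSP4, DUSP5, DUSP6 and DUSP16 were lower, 4 of the 10, where 25.4% of all genes tested were lower. The FPKM ranges of the groups did not overlap for 7 of the 10, against 58.7% of all genes tested. The median log2 change of the 10 genes was 0.0050, against -0.0020 for all genes tested, and the median size of the change without its sign was 0.38, against 0.35. Nothing particular to the family as a whole is read from these values, and the account that follows is of its individual members. The RNA came from whole cultures, in which fewer cells of a kind and less RNA per cell cannot be told apart.

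**Figure D1:**
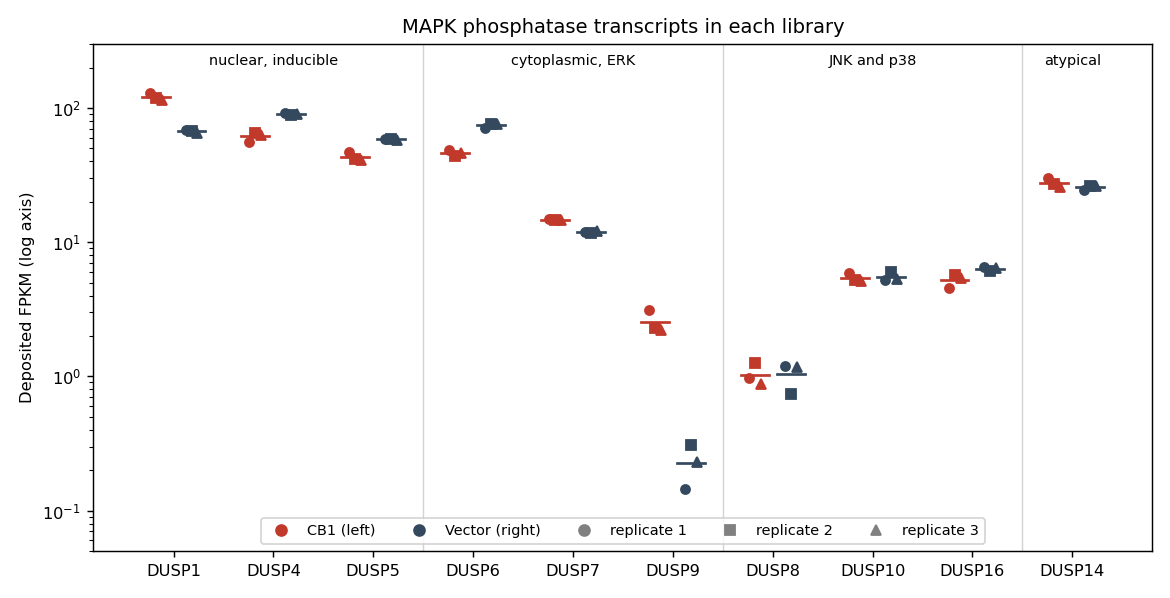
Deposited FPKM (log axis) of the 10 phosphatase genes in each library, with CB1 left in red and Vector right in dark blue, symbols for the replicate numbers and bars for the group means. DUSP1, DUSP7 and DUSP9 lay higher in all 3 CB1 libraries than in any Vector library, DUSP4, DUSP5, DUSP6 and DUSP16 lay lower, and DUSP8, DUSP10 and DUSP14 overlapped.

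Among the nuclear inducible phosphatases, DUSP1 went one way and DUSP4 and DUSP5 the other. DUSP1 (ENSG00000120129, chromosome 5, 172768090 to 172771195, minus strand, GRCh38) dephosphorylates p38, JNK and ERK and is an immediate early gene. It stood at 129, 118 and 115 FPKM in CB1 libraries, against 68.5, 67.4 and 64.7 FPKM in Vector libraries. The lowest CB1 library was far above the highest Vector library, and the groups averaged 120.78 ± 7.71 FPKM in CB1 and 66.85 ± 1.95 FPKM in Vector cells (SD, n = 3 each). DUSP1 was 1.83-fold higher in CB1 cells, a log2 change of 0.87 ± 0.07 (SE, 95% interval 0.72 to 1.02) with an edgeR adjusted p of 2.28e-06. With each library left out in turn the log2 change was 0.82 to 0.90.

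DUSP4 (ENSG00000120875, chromosome 8, 29333064 to 29350668, minus strand), which acts on ERK and JNK in the nucleus, was at 55.7, 65.4 and 63.0 FPKM in CB1 libraries, against 91.6, 88.8 and 90.5 FPKM in Vector libraries. All CB1 libraries lay below all Vector libraries, and CB1 replicate 1 was the lowest. DUSP4 was 1.46-fold lower in CB1 cells (log2 change -0.54 ± 0.07 SE, 95% interval -0.70 to -0.38, edgeR adjusted p = 8.76e-05), and the log2 change was -0.47 without CB1 replicate 1. DUSP5 (ENSG00000138166, chromosome 10, 110497838 to 110511544, plus strand) encodes a nuclear phosphatase specific for ERK. It was at 46.7, 41.8 and 40.7 FPKM in CB1 libraries, against 59.1, 58.3 and 58.0 FPKM in Vector libraries. The Vector libraries of DUSP5 were close to each other, and no CB1 library reached them. DUSP5 was 1.34-fold lower in CB1 cells (log2 change -0.43 ± 0.07 SE, 95% interval -0.58 to -0.27, edgeR adjusted p = 3.77e-04).

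Among the cytoplasmic, ERK-directed phosphatases, DUSP6 was lower while DUSP7 and DUSP9 were higher. DUSP6 (ENSG00000139318, chromosome 12, 89347232 to 89353271, minus strand) is the classical negative feedback gene of ERK signalling. It was at 48.7, 44.0 and 46.0 FPKM in CB1 libraries, against 71.1, 75.7 and 76.1 FPKM in Vector libraries. The groups did not overlap, and the log2 change was -0.67 ± 0.07 (SE, 95% interval -0.82 to -0.52, edgeR adjusted p = 1.13e-05). DUSP7 (ENSG00000164086, chromosome 3, 52048919 to 52056550, minus strand), its close relative with the same preference for ERK, was at 14.9, 14.8 and 14.6 FPKM in CB1 libraries, against 11.9, 11.8 and 12.0 FPKM in Vector libraries. This was a small difference with little spread, averaging 14.8 ± 0.179 FPKM in CB1 and 11.9 ± 0.131 FPKM in Vector cells (SD, n = 3 each). DUSP7 was 1.26-fold higher in CB1 cells (log2 change 0.33 ± 0.07 SE, 95% interval 0.18 to 0.48, edgeR adjusted p = 0.00168).

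DUSP9 (ENSG00000130829, chromosome X, 153642492 to 153651326, plus strand) is known best from placenta, kidney and embryonic cells. It had 145, 115 and 109 counts in CB1 libraries, against 7, 15 and 11 in Vector libraries. In FPKM these were 3.11, 2.29 and 2.20 in CB1 libraries, against 0.146, 0.308 and 0.230 in Vector libraries, so DUSP9 was a scarce transcript in both groups. The groups did not overlap, and CB1 replicate 1 was the highest. Summed over libraries and set against scaled library sizes, the count ratio of CB1 to Vector was 11.1 (95% exact binomial interval 7.80 to 16.4, which covers counting error only). The fitted log2 change was 3.47 ± 0.26 (SE, 95% interval 2.90 to 4.04, edgeR adjusted p = 1.51e-06). It was 3.24 to 3.75 with each library left out in turn, and 1.52 with limma on log2(FPKM + 1), where the pseudocount exceeds the Vector level.

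DUSP9 is the 1 member that passed the abundance minimum only through its level in CB1 cells, since its Vector mean was 0.228 FPKM. On the Vector mean alone 9 members passed, of which 2 were higher and 4 lower. Genes of 2 marker sets were also higher in CB1 cells, as were 24.4% of all genes tested. With only 2 groups, genes that differ in the same direction cannot be shown to go together. The 9p21 genes differed by count ratios of 16.6 for CDKN2A, 11.2 for MTAP and 6.98 for CDKN2B. Of the genes typical of the line HEK293, IGF2BP1 differed by a ratio of 17.8, NEFL by 18.3, LIN28B by 9.13 and NEFM by 6.77, while CRMP1 differed by 1.32. The part of these markers in the DUSP9 result was not tested.

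**Figure D2:**
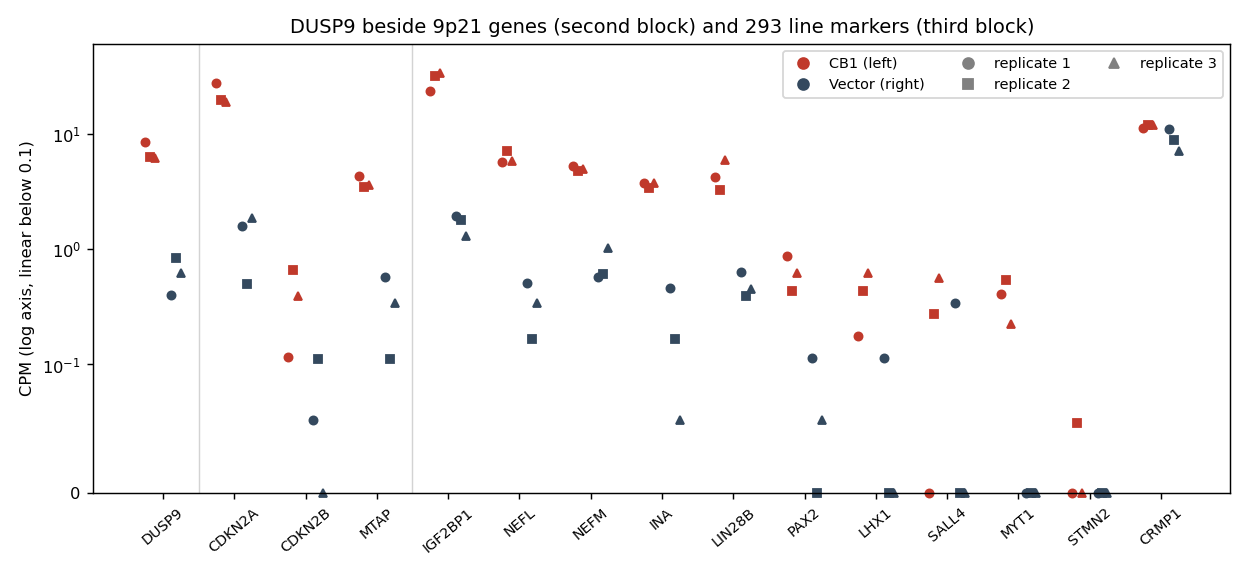
CPM (log axis that is linear below 0.1) of DUSP9, 3 genes of the 9p21 region and 11 genes typical of the line HEK293, with CB1 left in red and Vector right in dark blue and symbols for the replicate numbers. All genes shown except SALL4 and STMN2 were higher in all CB1 libraries than in any Vector library, though narrowly for CDKN2B, LHX1 and CRMP1. Several genes were at or near 0 in Vector libraries.

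Of the phosphatases directed at JNK and p38, DUSP16 was slightly lower and DUSP8 and DUSP10 did not pass the test. DUSP16 (ENSG00000111266, chromosome 12, 12474210 to 12562383, minus strand), which shuttles between cytoplasm and nucleus, was at 4.55, 5.68 and 5.39 FPKM in CB1 libraries, against 6.51, 6.07 and 6.47 FPKM in Vector libraries. The ranges did not overlap, but the gap between them was smaller than the spread of the CB1 libraries. DUSP16 was 1.21-fold lower in CB1 cells (log2 change -0.27 ± 0.10 SE, 95% interval -0.48 to -0.06, edgeR adjusted p = 0.0338). This call was lost with DESeq2 (adjusted p = 0.0522), without CB1 replicate 1 (log2 change -0.18, edgeR adjusted p = 0.0565) and without Vector replicate 1, 2 or 3 (edgeR adjusted p = 0.111, 0.0577 and 0.105, in that order), and over all alternatives its adjusted p ran from 0.00833 to 0.111.

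DUSP10 (ENSG00000143507, chromosome 1, 221701424 to 221742176, minus strand), a phosphatase of JNK and p38 with roles in immune cells, was at 5.92, 5.24 and 5.13 FPKM in CB1 libraries, against 5.20, 5.95 and 5.29 FPKM in Vector libraries. The libraries of the groups were interleaved. Its log2 change was 0.0012 ± 0.10 (SE, edgeR adjusted p = 0.997), and the 95% interval of -0.22 to 0.22 bounds the difference. DUSP8 (ENSG00000184545, chromosome 11, 1554044 to 1571920, minus strand), known from brain, heart and skeletal muscle, had 75, 105 and 72 counts in CB1 libraries, against 96, 60 and 93 in Vector libraries. These were small counts, and the groups overlapped widely. Its log2 change was 0.0089 ± 0.21 (SE, edgeR adjusted p = 0.978), with a 95% interval of -0.45 to 0.47, so that a difference of the size seen for DUSP5 could not have been told from 0 at this depth.

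DUSP14 (ENSG00000276023, chromosome 17, 37489831 to 37513501, plus strand), the atypical member, acts on MAP kinases and on the adaptor TAB1 in T cells. It was at 30.3, 27.3 and 25.7 FPKM in CB1 libraries, against 24.6, 26.1 and 26.0 FPKM in Vector libraries. CB1 replicate 1 gave the highest value and CB1 replicate 3 fell within the Vector range. The log2 change was 0.13 ± 0.08 (SE, 95% interval -0.04 to 0.30), and it did not pass the test (edgeR adjusted p = 0.189).

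**Figure D3:**
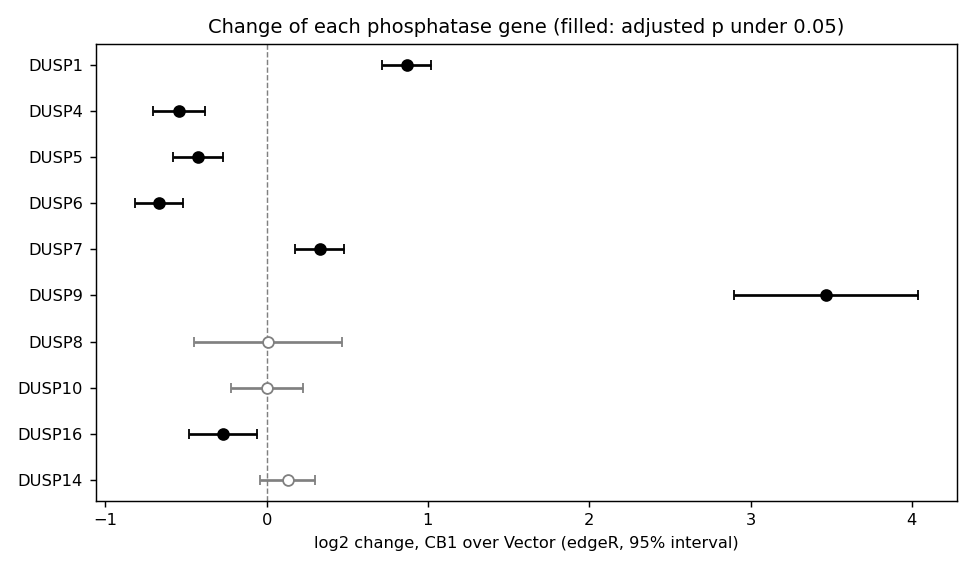
Log2 change of CB1 over Vector for each phosphatase gene, with 95% intervals from edgeR. Filled points passed an adjusted p of 0.05, with DUSP9 at 3.47, DUSP1 at 0.87 and DUSP7 at 0.33 on the higher side and DUSP6 at -0.67, DUSP4 at -0.54, DUSP5 at -0.43 and DUSP16 at -0.27 on the lower side.

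FPKM values are per length, with a fixed length for each gene (2019 bases for DUSP1 and 7257 for DUSP4). Orders, shares and ratios between genes rest on these lengths, and which transcripts were in use was not examined. In counts DUSP4 was above DUSP1 in CB1 cells too, with 23561 against 12852 over the CB1 libraries. The order below is by FPKM. In CB1 cells DUSP1 was the most abundant member, followed by DUSP4, then DUSP6 and DUSP5, whose ranges overlapped, then DUSP14, DUSP7, DUSP10 and DUSP16, whose ranges also overlapped, then DUSP9 and DUSP8. In Vector cells the order was DUSP4, DUSP6, DUSP1, DUSP5, DUSP14, DUSP7, DUSP16, DUSP10, DUSP8 and DUSP9, with no overlap between neighbours. DUSP1 thus stood above DUSP4 and DUSP6 in CB1 cells and below them in Vector cells. Among 19951 protein-coding genes, DUSP1 ranked 286 by its mean FPKM in CB1 and 514 in Vector cells, DUSP4 ranked 660 in CB1 and 344 in Vector cells, and DUSP6 ranked 930 in CB1 and 451 in Vector cells. DUSP9 ranked 8893 in CB1 and 12424 in Vector cells.

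The summed level of the 10 transcripts was 328 ± 11.2 FPKM in CB1 and 340.5 ± 0.643 FPKM in Vector cells (SD, n = 3 each). The ranges overlapped only through CB1 replicate 1, at 340.3 FPKM, against a lowest Vector value of 339.9 FPKM. CB1 replicates 2 and 3 were at 326 and 318 FPKM. These sums depend on how the deposited FPKM were scaled. The make-up of that sum differed more than its size. DUSP1 made up 36.8 ± 1.10% of it in CB1 and 19.6 ± 0.585% in Vector cells. DUSP4 made up 18.7 ± 2.06% in CB1 and 26.5 ± 0.462% in Vector cells, DUSP6 14.1 ± 0.516% in CB1 and 21.8 ± 0.784% in Vector cells, and DUSP5 13.1 ± 0.527% in CB1 and 17.2 ± 0.192% in Vector cells. Shares of 1 sum are not independent, and a higher share of DUSP1 lowers the others. DUSP9 reached 0.768% in CB1 and 0.0669% in Vector cells.

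**Figure D4:**
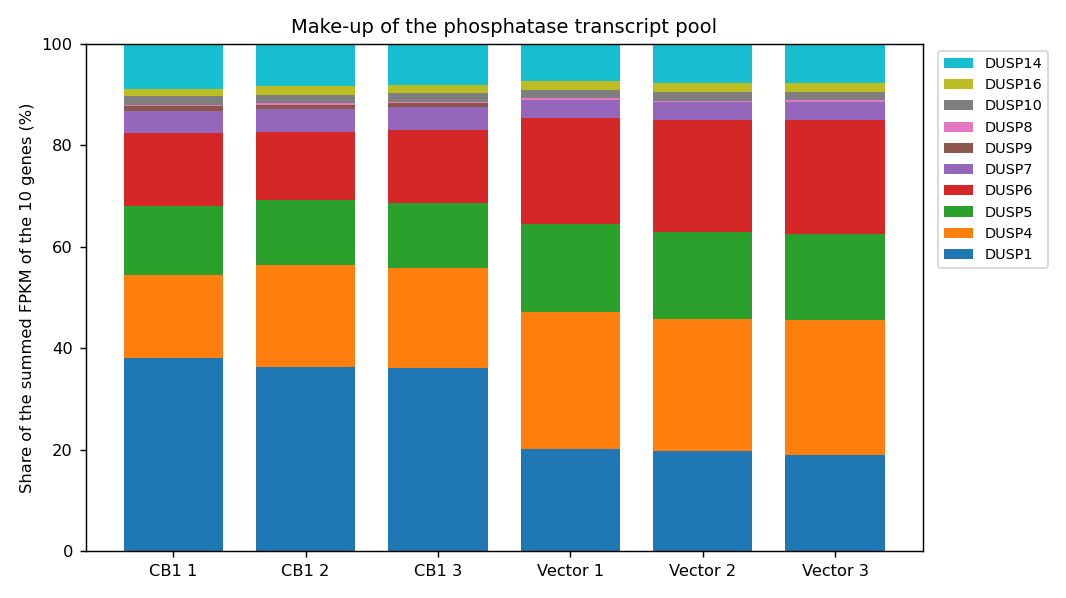
Share of each gene in the summed FPKM of the 10 phosphatase genes (%), 1 bar per library, CB1 left and Vector right. DUSP1 took 36.8% on average in the CB1 libraries and 19.6% in the Vector libraries.

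By class, the 3 nuclear inducible transcripts together were at 225 ± 6.73 FPKM in CB1 and 216 ± 3.16 FPKM in Vector cells, with overlapping ranges, since DUSP1 was higher while DUSP4 and DUSP5 were lower. The cytoplasmic, ERK-directed class was at 63.5 ± 2.93 FPKM in CB1 and 86.4 ± 2.87 FPKM in Vector cells, without overlap, and DUSP6 carried most of that level. The JNK- and p38-directed class was at 11.7 ± 0.438 FPKM in CB1 and 12.9 ± 0.0873 FPKM in Vector cells, without overlap (SD, n = 3 each). No test was run on these sums.

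Ratios of 2 transcripts within a library do not depend on how libraries are scaled, though their size depends on the gene lengths used. DUSP1 over DUSP4 was 2.32, 1.81 and 1.82 in CB1 libraries, against 0.748, 0.759 and 0.715 in Vector libraries, and lay on opposite sides of 1. DUSP1 over DUSP6 did the same, at 2.66, 2.69 and 2.49 in CB1 libraries and 0.963, 0.890 and 0.850 in Vector libraries. DUSP1 over DUSP5 was 2.77, 2.83 and 2.81 in CB1 libraries and 1.16, 1.16 and 1.12 in Vector libraries. These ratios show that DUSP1 and the other inducible members moved unequally, whatever the scaling. The 3 genes that were lower differed less among themselves. DUSP4 over DUSP6 was 1.14, 1.49 and 1.37 in CB1 libraries and 1.29, 1.17 and 1.19 in Vector libraries, with overlap. DUSP5 over DUSP6 was 0.958, 0.950 and 0.886 in CB1 libraries and 0.831, 0.770 and 0.762 in Vector libraries, without overlap. Within the cytoplasmic class, DUSP7 over DUSP6 was 0.307, 0.335 and 0.317 in CB1 libraries, against 0.167, 0.155 and 0.158 in Vector libraries.

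**Figure D5:**
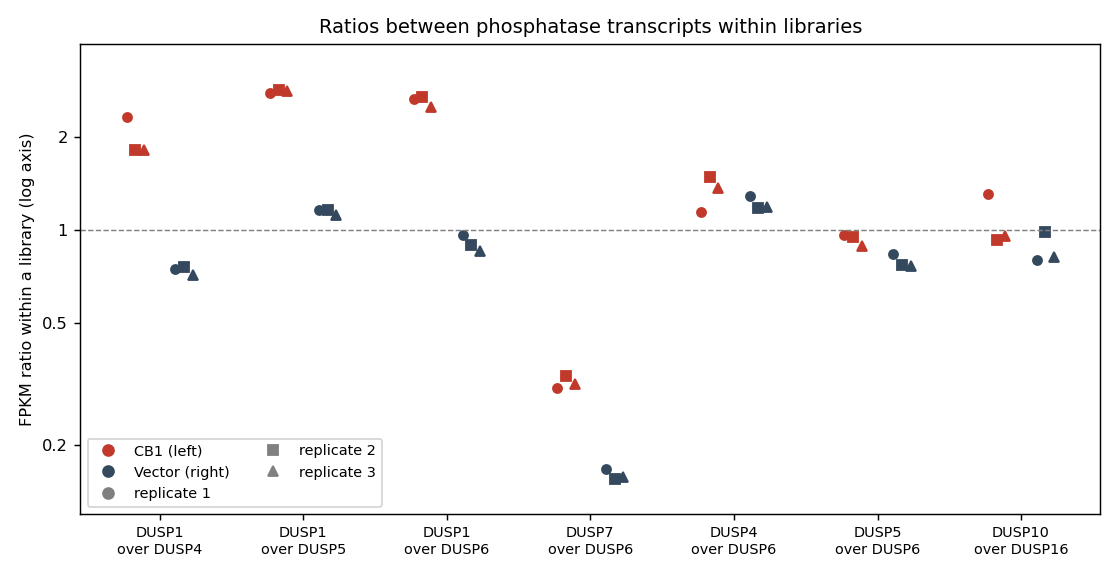
FPKM ratio of 2 phosphatase transcripts within each library (log axis, dashed line at 1), with CB1 left in red and Vector right in dark blue and symbols for the replicate numbers. DUSP1 over DUSP4 and DUSP1 over DUSP6 lay above 1 in all CB1 libraries and below 1 in all Vector libraries, and DUSP4 over DUSP6 overlapped between the groups.

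Some counts may be shared with neighbours, since the sources used here do not say whether counting used strand. DUSP6 overlaps the antisense gene AC024909.2, which had 235 counts over the CB1 and 262 over the Vector libraries, while DUSP6 itself had 11295 over the CB1 and 17922 over the Vector libraries. The genes that overlap DUSP1, DUSP8 and DUSP16 had at most 12 counts over any group. Of 6 family pseudogenes, 3 had counts. DUSP8P5 had 99 counts over the CB1 and 108 over the Vector libraries, while DUSP8 itself had 252 over the CB1 and 249 over the Vector libraries. Only uniquely mapped reads were used, so the level of DUSP8 is uncertain. DUSP5P1 had 72 counts over the CB1 and 63 over the Vector libraries, which is small beside the counts of DUSP5, 5937 over the CB1 and 7962 over the Vector libraries.

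Other phosphatases of the family were described from a list of 16 genes, of which 10 were tested, 5 were higher and 2 were lower in CB1 cells. For this list and those below, 24.4% of all genes tested were higher and 25.4% lower. The lists were chosen with earlier results of these data known. The remaining nuclear inducible phosphatase, DUSP2, was at 2.28, 1.29 and 1.60 FPKM in CB1 libraries, against 0.449, 0.473 and 0.240 FPKM in Vector libraries. Its groups did not overlap, and it was 4.43-fold higher in CB1 cells on 74, 45 and 55 counts against 15, 16 and 8 counts in Vector libraries (log2 change 2.15 ± 0.32 SE, edgeR adjusted p = 1.55e-04). Like DUSP9, DUSP2 passed the minimum through its CB1 level, with a Vector mean of 0.387 FPKM. The pseudophosphatases STYX and STYXL1, which lack activity, went apart, with log2 changes of -0.37 (edgeR adjusted p = 0.00291) for STYX and 0.45 (edgeR adjusted p = 0.00429) for STYXL1. Without CB1 replicate 2, without Vector replicate 3, with limma on log2(FPKM + 1) or log2(FPKM + 0.1), and with the minimum applied to the Vector mean alone, 3 rather than 5 genes of the list were higher. The same held at an adjusted p of 0.01.

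Phosphatases of MAP kinases outside the family were described from 8 genes, of which 6 were tested, 0 were higher and 4 were lower. PPM1B and PPM1A, metal-dependent serine/threonine phosphatases that act on stress kinases, had log2 changes of -0.54 (edgeR adjusted p = 0.00101) and -0.28 (edgeR adjusted p = 0.00674). The call of PPM1A was lost without Vector replicate 1 (log2 change -0.24, edgeR adjusted p = 0.0522). PTPRR, a receptor-type tyrosine phosphatase of ERK, had a log2 change of -0.70 (edgeR adjusted p = 0.00445). The catalytic subunits PPP2CA and PPP2CB of phosphatase PP2A did not pass the test, at 0.03 and -0.09. The median log2 change of the 6 genes was -0.33, against -0.0020 for all genes tested.

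The substrates of the phosphatases are the MAP kinases. Of 9 MAP kinase genes, 8 were tested, 1 was higher and 2 were lower in CB1 cells. MAPK3, which encodes an ERK kinase that DUSP5, DUSP6, DUSP7 and DUSP9 act on, had a log2 change of 0.08 (95% interval -0.09 to 0.25), with an edgeR adjusted p of 0.434. MAPK7, which encodes ERK5, was 1.31-fold higher in CB1 cells (log2 change 0.39, edgeR adjusted p = 0.00179). MAPK8 and MAPK9, which encode JNK kinases, were lower, with log2 changes of -0.36 (edgeR adjusted p = 0.00749) and -0.24 (edgeR adjusted p = 0.0132), and their calls were lost without Vector replicate 3 (log2 changes -0.29 and -0.22, edgeR adjusted p = 0.0534 and 0.0768), that of MAPK9 also without CB1 replicate 2 or Vector replicate 1 (edgeR adjusted p = 0.0521 and 0.0503). Without CB1 replicate 3, 2 rather than 1 of these genes were higher.

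Of 7 MAP kinase kinase genes, 6 were tested, 5 were higher and 1 was lower, where 24.4% of all genes tested were higher and 25.4% lower. MAP2K2, an activator of ERK, was at 75.7, 65.1 and 56.0 FPKM in CB1 libraries, against 42.2, 43.8 and 44.1 FPKM in Vector libraries (log2 change 0.61 ± 0.09 SE, edgeR adjusted p = 1.71e-04). MAP2K3, an activator of p38, and MAP2K7, an activator of JNK, were higher with log2 changes of 0.59 (edgeR adjusted p = 3.54e-05) and 0.38 (edgeR adjusted p = 7.93e-04). MAP2K4, the other activator of JNK, was lower (log2 change -0.32, edgeR adjusted p = 0.00669). With libraries scaled by their totals alone, with no abundance minimum, with limma on log2(FPKM + 1) or log2(FPKM + 0.1), or without any 1 of the Vector libraries, 3 rather than 5 of these genes were higher. The same held at an adjusted p of 0.01.

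Genes that ERK signalling drives or that feed back on it were described from 20 genes, all tested, of which 7 were higher and 7 lower in CB1 cells. SPRY2, a feedback inhibitor that, like DUSP6, is induced by ERK, was at 20.7 ± 1.14 FPKM in CB1 and 35.7 ± 0.761 FPKM in Vector cells (log2 change -0.77, edgeR adjusted p = 6.88e-06), and its relative SPRY1 had a log2 change of -0.70 (edgeR adjusted p = 1.59e-05). SPRY4, of the same family, was higher, with a log2 change of 0.31 (edgeR adjusted p = 0.0107). The ETS factor ETV1 was at 8.72 ± 0.503 FPKM in CB1 and 24.3 ± 0.566 FPKM in Vector cells (log2 change -1.46, edgeR adjusted p = 8.17e-08), while ETV4 and ETV5 were higher, with log2 changes of 0.47 (edgeR adjusted p = 1.81e-04) and 0.27 (edgeR adjusted p = 0.00738). FOSL1, an AP-1 subunit that accumulates with lasting ERK activity, was at 346 ± 13.6 FPKM in CB1 and 225 ± 4.11 FPKM in Vector cells (log2 change 0.64, edgeR adjusted p = 8.52e-06; SD, n = 3 each). The list did not move in 1 direction, and DUSP6 stood with SPRY1, SPRY2 and ETV1 on the lower side. SPRY1, SPRY4, ETV4 and ETV5 were named after their values were seen.

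Immediate early transcription factors, the class of rapidly induced genes to which DUSP1 belongs, were described from 18 genes, of which 15 were tested, 9 were higher and 3 were lower. FOSB, an AP-1 subunit, was at 2.18 ± 0.155 FPKM in CB1 and 0.232 ± 0.0345 FPKM in Vector cells (log2 change 3.24, edgeR adjusted p = 9.79e-08), so that it too reached the abundance minimum only through its CB1 level. KLF2, a zinc finger factor, was at 16.0 ± 1.66 FPKM in CB1 and 9.19 ± 0.179 FPKM in Vector cells (log2 change 0.82, edgeR adjusted p = 2.29e-05). FOS, which also stands in the next list, had a log2 change of 3.28 (edgeR adjusted p = 4.99e-08). The 3 lower genes were EGR1, ATF3 and KLF4, named after their values were seen. Their log2 changes were -0.49, -0.84 and -0.32 (edgeR adjusted p = 3.22e-04, 3.93e-04 and 0.00925, in that order). Of the 12 tested genes on a list for cAMP and CREB signalling, 4 were higher and 3 were lower. PER1, a clock gene, was higher (log2 change 0.68, edgeR adjusted p = 1.01e-04) and PPARGC1A, a coactivator of mitochondrial genes, was lower (log2 change -1.72, edgeR adjusted p = 4.27e-06). PPARGC1A reached the abundance minimum only through its Vector level, with a mean of 0.407 FPKM in CB1 and 1.36 FPKM in Vector cells. With limma on log2(FPKM + 1) or log2(FPKM + 0.1), 1 rather than 3 genes of this list were lower.

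The DUSP1 transcript is known to carry AU-rich elements through which RNA-binding proteins set its lifetime. Of 9 such proteins, all tested, 6 were higher and 2 were lower in CB1 cells. ZFP36 and KHSRP, which destabilise such transcripts, were higher, with log2 changes of 0.70 (edgeR adjusted p = 8.28e-05) and 0.77 (edgeR adjusted p = 5.27e-06). ELAVL1, which stabilises them, was higher too (log2 change 0.34, edgeR adjusted p = 0.00143, named after its value was seen), and TIA1, a translational repressor, was lower (log2 change -0.99, edgeR adjusted p = 3.60e-06). The median log2 change of the list was 0.34, against -0.0020 for all genes tested.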

How the data were processed

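Per the study's methods, mRNA was isolated on oligo(dT) beads and NEBNext Ultra libraries were sequenced on an Illumina instrument. The tools listed in the submitters' notes are featureCounts 1.5.0-p3 and HISAT2 2.0.5. The counts deposited by the authors are whole numbers per gene, not normalized, from uniquely mapped reads in exons. The FPKM values deposited by the authors scale these counts by gene length and by a library size other than the count total. Relative to scaling by totals, their median factors were 1.06, 1.04 and 1.01 in CB1 replicates 1, 2 and 3. The Vector replicates had factors of 0.981, 0.996 and 0.997 in the same order. This further scaling enters all FPKM levels, sums and ranges given here. No source used here gives the genome build. Gene bounds equalled GENCODE 29 on GRCh38 for all 10 members. Groups came from the sample titles.

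Genes whose mean over the 6 libraries reached 0.5 FPKM entered edgeR's quasi-likelihood test (edgeR 4.0.16, R 4.3.3) with TMM scaling and Benjamini-Hochberg adjustment over all 15289 genes (two-sided, threshold 0.05). Levels are in deposited FPKM, CPM are per TMM-scaled size, and the biological coefficient of variation was 8.51%. Intervals are 95%. No libraries were duplicates. The named genes were all members, CNR1, and up to 3 genes per list with the smallest p; others are marked, except markers, genes given as not passed (MAPK3, PPP2CA and PPP2CB) and MAP2K4, which were also chosen after their values were seen. Some genes of the lists are not reported here and were left out of their counts. The members and lists were chosen with earlier results of these data known. On simulated data for CB1 against Vector (15289 genes), 100 genes were changed 2-fold and 100 were changed 4-fold, of which the test found 89% and 100%. Its 197 calls included 8 false ones. Changes under 2-fold, like those of DUSP1, DUSP4, DUSP5, DUSP6, DUSP7 and DUSP16, were not simulated, and the spread was taken from these libraries. The shares found therefore do not extend to those members. Alternatives covered the minimum, scaling, biotype, prior variance, threshold, replicate block, each library left out, limma 3.58.1, limma-voom and DESeq2 1.42.0. Proteins and reads were not analysed here.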

Additional observations from a re-analysis of the deposited data

How the results depend on the processing

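The calls of DUSP1, DUSP4, DUSP5, DUSP6 and DUSP7 kept their direction and stayed past an adjusted p of 0.05 in all 19 alternatives with a test, as did that of DUSP9 in the 18 in which it was tested. DUSP9 was not tested when the minimum applied to the Vector mean alone. The DUSP16 call was lost in 5 alternatives, as given above. With a change of more than 2-fold required as well, 1 phosphatase was higher (DUSP9) and 0 were lower, and over all genes 550 were higher and 376 lower. At an adjusted p of 0.01, 3 phosphatases were higher and 3 lower, and over all genes fewer passed in each direction than at 0.05. Leaving out each library in turn gave 3 phosphatases higher throughout and 3 to 4 lower.

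DUSP8 and DUSP10, which lay near 0, changed sign without passing the test. DUSP8 was at -0.036 with no minimum, -0.071 with library totals, -0.00050 with limma on log2(FPKM + 1), and -0.15 and -0.19 without CB1 replicate 2 and Vector replicate 2, within a range of -0.19 to 0.13 with each library left out. DUSP10 was at -0.044 with no minimum, -0.0067 with filterByExpr, -0.078 with library totals, -0.011 and -0.013 with limma on log2(FPKM + 1) and log2(FPKM + 0.1), and -0.057, -0.032 and -0.025 without CB1 replicate 1, Vector replicate 1 and Vector replicate 3, within a range of -0.057 to 0.063 with each library left out. ERBB2 was at -0.030 with library totals. The cause was not tested. With library totals 39.4% of 7741 calls were higher, against 48.98% of 7607, and with no minimum the median log2 change of all genes was 0.17.

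The replicate numbers did not pair the libraries (correlations of deviations between equal numbers -0.144, -0.076 and -0.033). A fit with the replicate block gave 3 phosphatases higher and 4 lower, and 7143 calls over all genes. With it, 3 rather than 5 MAP kinase kinase genes were higher. Low counts limit DUSP8 and DUSP9.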
